A study of Homo sapiens with 6 samples.

Results

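The genes described here encode writers, erasers, readers and partners of H3K9 methylation itself, and the question was where their own gene bodies carry the mark in cells with PURPL-targeting guides and in cells with a control guide. The set of 10 genes comprises the methyltransferase genes EHMT1, SETDB1, SETDB2 and SUV39H2, the demethylase genes KDM4B and KDM4C, the partner genes ATF7IP, TRIM28 and MORC2, and the reader gene CBX5. They are 10 of 19970 protein-coding genes on chromosomes 1 to 22 and X. H3K9me3, trimethylation of lysine 9 on histone H3, was mapped by ChIP-seq (sequencing of DNA pulled down with an antibody to the mark) in BJ, an established fibroblast line from human skin. The groups were BJ cells carrying PURPL guide 1 (sgRNA-PURPL#1), BJ cells carrying PURPL guide 2 (sgRNA-PURPL#2) and BJ cells carrying a control guide (sgCtrl), all 3 in a CRISPR interference design, where guide RNAs direct a repressor to chosen DNA. PURPL is transcribed into a p53-responsive long non-coding RNA. Each group gave 1 H3K9me3 library and 1 input library. The sources used here do not say which repressor the lines carry or whether each line is a clone or a pool.

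A peak was counted for a gene when it overlapped the gene body, or the 5 kb on either side, by at least 1 bp. This rule gave 6 peaks with PURPL guide 1, 2 with PURPL guide 2 and 10 with the control guide, of 14087, 11721 and 22627 peaks on these chromosomes in the 3 lists. With 1 library per group there is no replicate to check a difference against, and no p-value is given. The sequencing depth of the libraries is unknown, so how many peaks each could yield is unknown too. Scores are the authors' own values. Each is given here with its percentile among the peaks of its own list, because scores of different lists need not share a scale.

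H3K9 methylation is laid down by SET-domain enzymes. SETDB1 trimethylates H3K9 in euchromatin and at retrotransposons, SUV39H2 acts mainly at constitutive heterochromatin, and EHMT1 makes the mono- and dimethylated states together with its partner EHMT2. TRIM28 is the corepressor that KRAB zinc finger proteins bring to DNA and that recruits SETDB1, ATF7IP keeps SETDB1 stable in the nucleus, and MORC2 is an ATPase that works with the HUSH silencing complex. CBX5 is HP1 alpha, which binds the finished mark, and KDM4B and KDM4C remove it.

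Before the peaks, the sequence just upstream of 4 of these genes is shown, because no peak of any list lay there. Each is the 250 bases before the first-listed start site, from RefSeq on GRCh38.p14, written 5′ to 3′ on the gene's strand, with CG dinucleotides in capitals. SETDB1 had the peaks closest to its first-listed start site and ATF7IP the longest control coverage. KDM4B was the gene with peaks in all 3 lists, and CBX5 is a gene with none.
SETDB1 (chr1:150926013-150926262, plus strand): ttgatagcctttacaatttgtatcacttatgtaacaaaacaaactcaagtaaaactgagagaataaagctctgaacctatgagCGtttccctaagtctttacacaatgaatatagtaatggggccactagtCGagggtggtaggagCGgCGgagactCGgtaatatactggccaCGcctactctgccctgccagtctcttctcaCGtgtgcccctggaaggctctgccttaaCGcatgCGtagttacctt
ATF7IP (chr12:14365432-14365681, plus strand): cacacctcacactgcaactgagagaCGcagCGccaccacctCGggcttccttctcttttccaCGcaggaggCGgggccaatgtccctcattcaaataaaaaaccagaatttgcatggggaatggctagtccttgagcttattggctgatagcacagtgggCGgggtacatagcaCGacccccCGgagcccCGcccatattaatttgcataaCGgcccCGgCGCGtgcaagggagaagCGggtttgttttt
KDM4B (chr19:4968863-4969112, plus strand): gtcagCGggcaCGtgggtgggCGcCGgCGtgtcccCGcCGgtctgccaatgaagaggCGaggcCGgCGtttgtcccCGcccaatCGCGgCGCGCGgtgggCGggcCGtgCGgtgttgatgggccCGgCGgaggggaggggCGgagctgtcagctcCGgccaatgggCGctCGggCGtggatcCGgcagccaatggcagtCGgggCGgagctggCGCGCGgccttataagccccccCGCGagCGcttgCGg
CBX5 (chr12:54280123-54280372, minus strand): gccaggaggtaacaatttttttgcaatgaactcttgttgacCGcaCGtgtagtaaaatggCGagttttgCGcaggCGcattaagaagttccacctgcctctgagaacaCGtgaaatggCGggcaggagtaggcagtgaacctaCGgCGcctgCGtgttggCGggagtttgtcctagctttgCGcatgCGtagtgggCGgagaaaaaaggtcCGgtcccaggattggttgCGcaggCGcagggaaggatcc
These stretches hold 9, 14, 36 and 17 CG dinucleotides. Across the first-listed promoters of the 9 genes with an entry in the promoter table (TRIM28 had none), the count ran from 9 to 43 with a median of 25. Over 15811 protein-coding genes the median was 17, with quartiles of 6 and 26, and 96.9% held at least 1 CG. CG reads the same on both strands, so each site was counted once. None of the 17 promoter windows listed for the 9 genes (250 bases before to 50 after a start site) overlapped a peak in any list. Such an overlap was rare among all 22131 promoter windows of protein-coding genes, at 0.0813% with PURPL guide 1, 0.0452% with PURPL guide 2 and 0.127% with the control guide.

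Of the 10 genes, 4 had a peak with PURPL guide 1, 1 with PURPL guide 2 and 5 with the control guide. Over all protein-coding genes the shares with a peak were 7.34%, 4.25% and 15.1%. The set was chosen with earlier results of these data known, so no enrichment is read from these counts. The 5 genes marked in the control were EHMT1, SETDB1, SETDB2, KDM4B and ATF7IP. The 5 genes with no peak in any list were SUV39H2, KDM4C, TRIM28, CBX5 and MORC2, and 82.9% of all protein-coding genes had none either. Of the 5 genes unmarked in the control, 0 had a peak with PURPL guide 1 and 0 with PURPL guide 2, where 1.57% and 0.979% of all protein-coding genes unmarked in the control had one.

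Peaks were found more often in long genes, and the set had a median body of 49956 bp against 24190 bp over all protein-coding genes. Among the 4 genes of at least 100 kb (EHMT1, KDM4B, KDM4C and ATF7IP), 3 were marked with PURPL guide 1, 1 with PURPL guide 2 and 3 with the control guide. Among all 3351 protein-coding genes of that length the shares were 19.5%, 10.3% and 42.9%. Among the 5 genes of 20 to 100 kb, 1, 0 and 2 were marked, beside 7.11%, 4.18% and 15.0% of all 7639 such genes. TRIM28, at 6.65 kb, was the 1 gene of the set under 20 kb and was unmarked, beside marked shares of 2.97%, 2.05% and 4.7% among all 8980 such genes. These length classes were set after the peaks of the genes were seen.

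**Figure D1:**
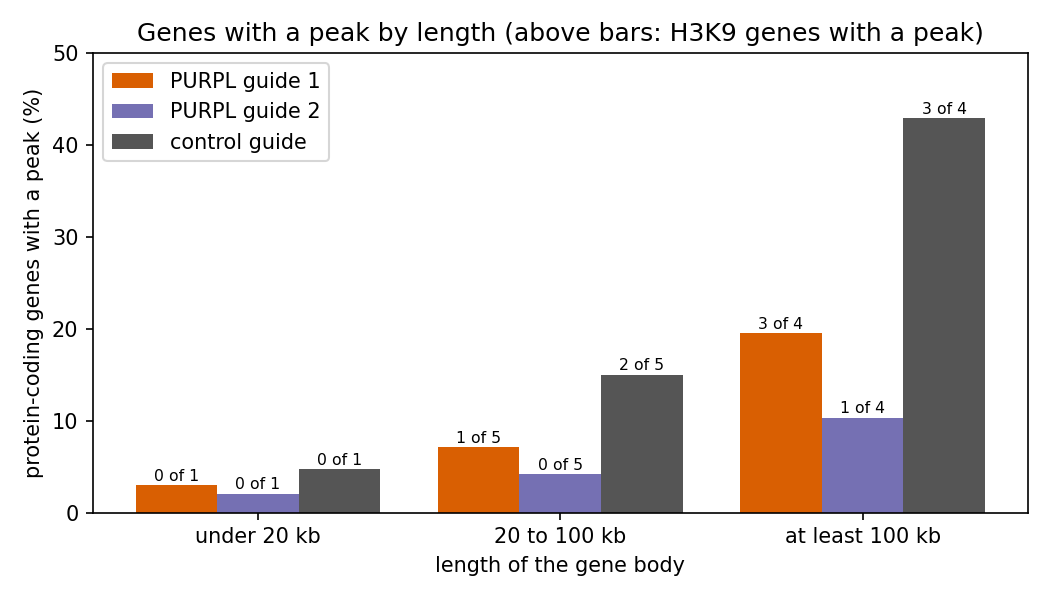
Share of protein-coding genes with an H3K9me3 peak in the body or within 5 kb (vertical axis, percent) by length of the gene body (horizontal axis), 1 bar per list, with the number of the 10 H3K9 methylation genes that had a peak written above each bar. In the control list the share was 42.9% for genes of at least 100 kb and 4.7% for genes under 20 kb.

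The length under peaks was shorter with both PURPL guides in each of the 5 control-marked genes, under the 5 kb windows and with all deposited peaks. These genes were picked by a control peak, from the list with the most peaks, and that choice favours a shorter length with the guides. The control-marked genes of the background were picked in the same way. Summed over the 10 windows it was 3079 bp with PURPL guide 1, 500 bp with PURPL guide 2 and 12651 bp with the control guide, which left 24.3% and 3.95% of the control length. Over all protein-coding gene windows 37.3% and 15.4% was left. Such sums weigh wide peaks most, and 1 ATF7IP peak gave 5901 bp of the 12651 bp. With PURPL guide 1 the share left was 67.5% in EHMT1, 26.9% in SETDB1, 0% in SETDB2, 30.5% in KDM4B and 18.3% in ATF7IP. With PURPL guide 2 it was 16.4% in KDM4B and 0% in the other 4. The median over all control-marked protein-coding genes was 0% with each guide. At most 50% of the control length was left in 4 of the 5 genes with PURPL guide 1 and in 5 of 5 with PURPL guide 2. Over all 3008 control-marked protein-coding genes this held for 82.0% with PURPL guide 1 and 93.1% with PURPL guide 2, so the counts of the set lie near the background. Coverage was longer than in the control for 0 of the 5 genes with either guide, beside 5.95% with PURPL guide 1 and 2.46% with PURPL guide 2 of all control-marked genes. No peak stood in 1 of the 5 genes with PURPL guide 1 and in 4 of the 5 with PURPL guide 2, beside 60.1% and 77.3% of all control-marked genes. The windows span 1.31 Mb, of which 0.235%, 0.0382% and 0.967% lay under peaks with PURPL guide 1, PURPL guide 2 and the control guide.

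**Figure D2:**
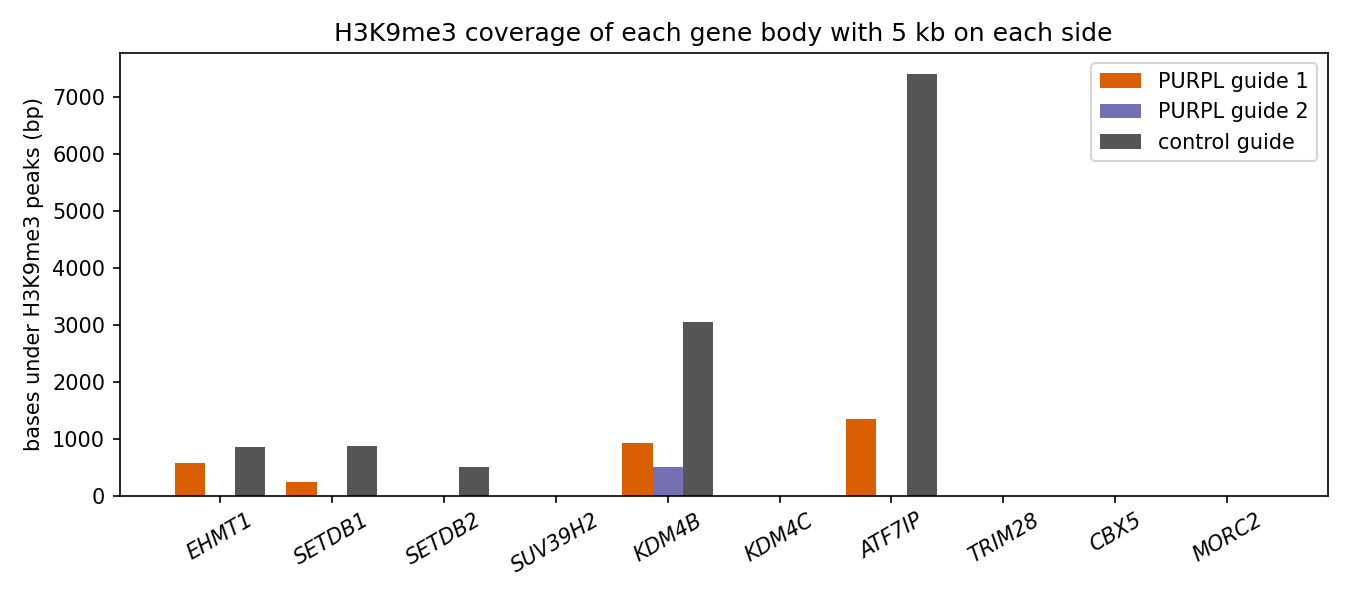
Bases under H3K9me3 peaks (vertical axis, bp) in the body of each gene with 5 kb on each side, with 1 bar each for PURPL guide 1, PURPL guide 2 and the control guide (1 library each, so no error bars). ATF7IP had 1351, 0 and 7395 bp and KDM4B had 926, 500 and 3041 bp, while 5 genes had no covered base.

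Among the writers, SETDB1 (gene ID 9869, chromosome 1, 150926263 to 150964737 on GRCh38) had 1 peak with PURPL guide 1 and 1 with the control guide at nearly the same place. The PURPL guide 1 peak ran from 150931286 to 150931517, a width of 232 bp, with a score of 39 at percentile 81.7 of its list. The control peak ran from 150931371 to 150932233, a width of 863 bp, with a score of 28 at percentile 68.8. The peaks shared 147 bp, so the guide 1 peak was narrower although it ranked higher in its list than the control peak did in its own. They lay 4.92 kb and 5.01 kb past the nearer of the 2 annotated start sites. PURPL guide 2 had no peak there, and its nearest lay 348 kb from the SETDB1 gene body, at the apoptosis inhibitor gene MCL1.

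EHMT1 (gene ID 79813, chromosome 9, 137619005 to 137836127) was the marked gene whose guide 1 coverage came closest to the control. The PURPL guide 1 peak at 137734121 to 137734690 was 570 bp wide, with a score of 18 at percentile 30.7. The control peak at 137734470 to 137735071 was 602 bp wide, with a score of 24 at percentile 59.0. The peaks overlapped by 221 bp and lay in the middle of the gene, 53.1% and 53.3% of the way along it. The control list held a further peak 4435 bp past the gene's end, at 137840562 to 137840803, with a width of 242 bp and a score percentile of 19.6. With that peak the window had 570 bp with PURPL guide 1, 0 bp with PURPL guide 2 and 844 bp with the control guide. The nearest PURPL guide 2 peak was 374 kb from the gene. With 25 kb on each side the direction for PURPL guide 1 turned, to 28 bp more than in the control, because a further guide 1 peak lies 9.34 kb past the gene's end.

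SETDB2 (gene ID 83852, chromosome 13, 49444274 to 49495003), a relative of SETDB1, was marked in the control alone. Its peak ran from 49463096 to 49463603, a width of 508 bp, in the part of the gene shared with the readthrough gene SETDB2-PHF11. Its score of 13 stood at percentile 5.61, the lowest of the 10 control peaks. The PURPL guide 1 peak nearest to the gene body lay 38.4 kb from it, in CAB39L, and the nearest PURPL guide 2 peak 1020 kb from it. Absence of every peak from both guides was found for 1 of the 5 control-marked genes of the set and for 54.0% of all control-marked protein-coding genes.

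SUV39H2 (gene ID 79723, chromosome 10, 14878866 to 14904315) had no peak in any list. Its nearest control peak lay 13021 bp away, in the DNA repair nuclease gene DCLRE1C, at 14917336 to 14918193. The nearest PURPL guide 1 peak was 158 kb away and the nearest PURPL guide 2 peak 2100 kb away.

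Among the erasers, KDM4B (gene ID 23030, chromosome 19, 4969113 to 5153598) was the 1 gene of the set with peaks in all 3 lists, and the lists differed in where the peaks lay. With PURPL guide 1 the peaks were at 5076305 to 5076549 (245 bp, score 22, percentile 48.2) and 5099687 to 5100367 (681 bp, score 25, percentile 58.6). With PURPL guide 2 they were at 5076280 to 5076537 (258 bp, score 15, percentile 12.2) and 5098197 to 5098438 (242 bp, score 14, percentile 7.68). The control peaks were at 5062422 to 5063169 (748 bp, score 23, percentile 56.1), at 5098826 to 5100598 (1773 bp, score 21, percentile 49.5) and, 4481 bp past the gene's end, at 5158079 to 5158699 (621 bp, score 19, percentile 41.5).

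The KDM4B peaks fall into 4 places. At the first, near the middle of the gene, only the control had a peak, and the nearest peak of either guide was 13.1 kb away. At the second, 107 kb into the gene, the peaks of PURPL guide 1 and PURPL guide 2 shared 233 bp and the control had none. This was 1 of the 6 guide 1 peaks of the set, and 1.98% of the guide 1 peaks in all protein-coding gene windows had a guide 2 peak and no control peak. At the third, about 130 kb into the gene, the PURPL guide 1 peak lay wholly inside the 1773 bp control peak, and the PURPL guide 2 peak ended 388 bp before the control peak began. At the fourth, past the gene's end, the control peak overlapped by 12 bp a PURPL guide 1 peak at 5158688 to 5159033, which lay 5090 bp from the gene and so just outside the window. The window had 926 bp under peaks with PURPL guide 1, 500 bp with PURPL guide 2 and 3041 bp with the control guide, leaving 30.5% and 16.4%. Among peaks with a score of at least 22, the median of the 3 lists pooled, the direction for PURPL guide 1 turned, with 178 bp more than in the control. The 1773 bp control peak, with a score of 21, fell just under this limit. Scores of different lists need not share a scale, so the limit need not act alike on them. At this limit PURPL guide 2 had no peak at any gene of the set, and the share over all protein-coding genes was not computed.

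KDM4C (gene ID 23081, chromosome 9, 6720863 to 7175648) was the longest gene of the set at 455 kb and had no peak in any list, although 42.9% of protein-coding genes of at least 100 kb had a control peak. Its nearest peaks were 942 kb away with PURPL guide 1, 138 kb with PURPL guide 2 and 133 kb with the control guide. The PURPL guide 2 and control peaks both lay in the uncharacterised gene LOC105375970.

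Among the partners, ATF7IP (gene ID 55729, chromosome 12, 14365682 to 14502930) had the longest control coverage of the set. With PURPL guide 1 it had peaks at 14470620 to 14471352 (733 bp, score 15, percentile 14.2) and 14473499 to 14474116 (618 bp, score 15, percentile 14.2). PURPL guide 2 had none, and its nearest peak was 970 kb from the gene body. The control had a peak of 5901 bp at 14470116 to 14476016 (score 25, percentile 61.8), and peaks at 14379061 to 14379800 (740 bp, score 16, percentile 25.6) and 14422109 to 14422862 (754 bp, score 15, percentile 19.6). Both guide 1 peaks lay wholly inside the 5901 bp control peak and covered 22.9% of it. The other control peaks, 5.48 kb and 4.14 kb from the nearest of the gene's 6 annotated start sites, had no guide peak within 39.1 kb. Coverage of the window was 1351 bp with PURPL guide 1, 0 bp with PURPL guide 2 and 7395 bp with the control guide, which left 18.3% and 0%. The 5901 bp peak was the 1 peak of the set at least 5000 bp wide. Among peaks in all protein-coding gene windows, 3.03% were that wide with PURPL guide 1, 0.74% with PURPL guide 2 and 4.13% with the control guide.

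**Figure D3:**
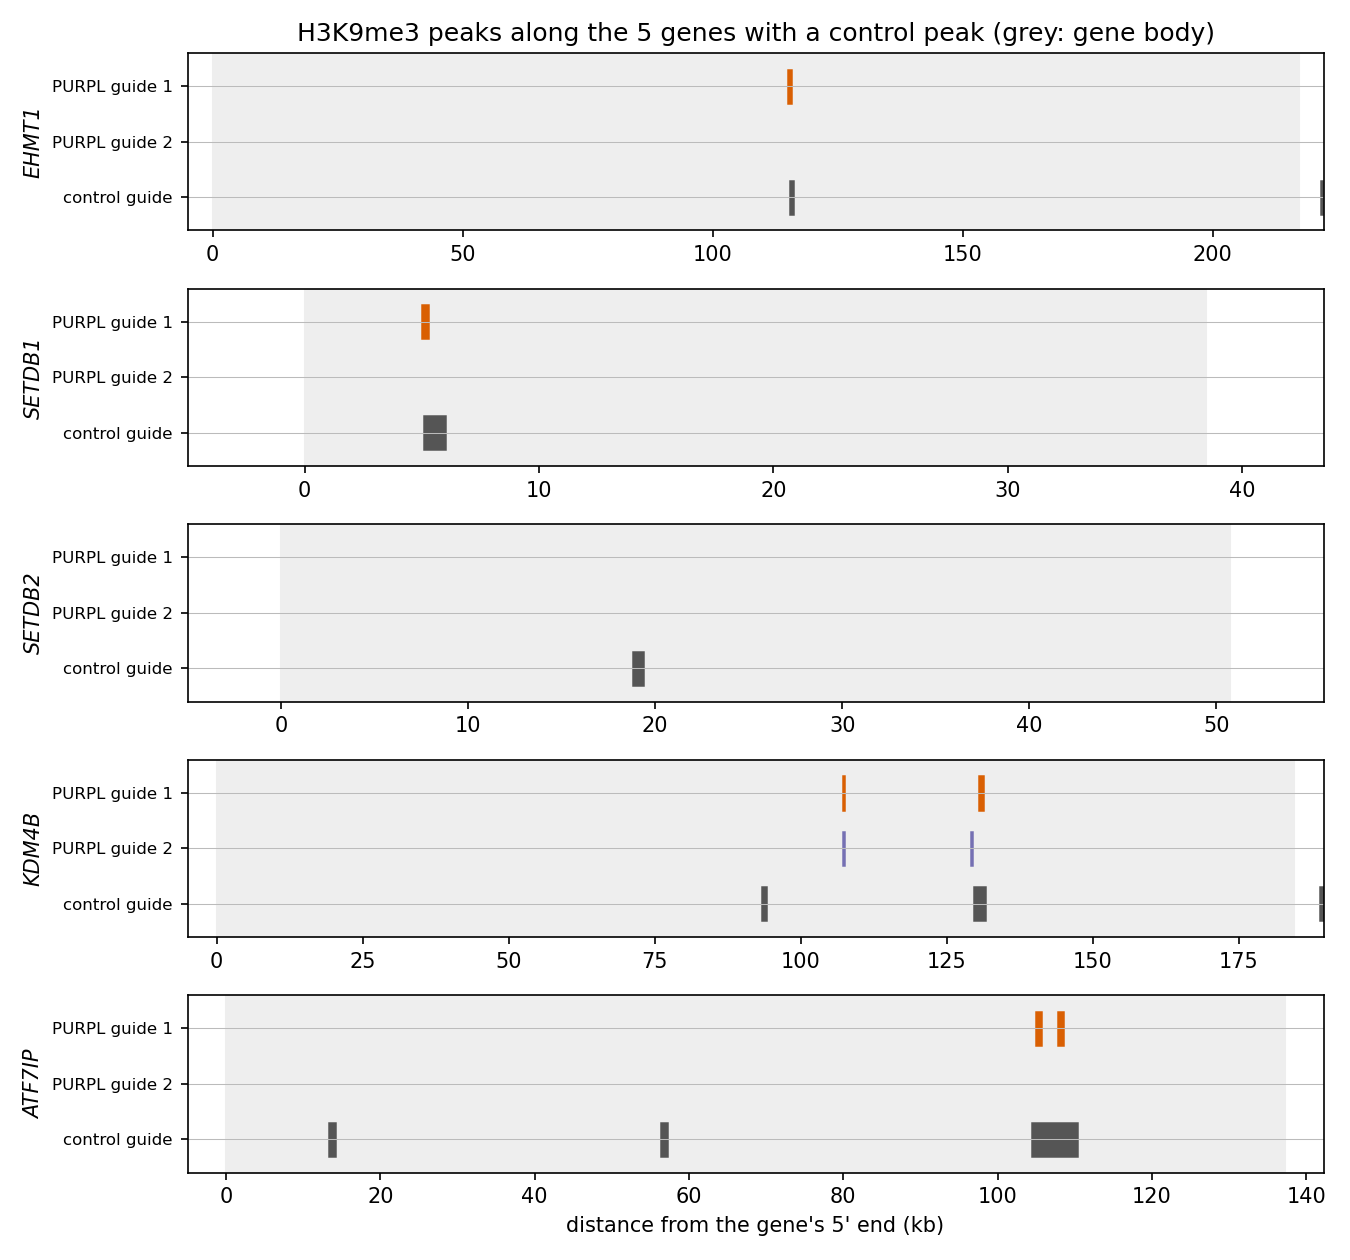
H3K9me3 peaks (filled boxes) of PURPL guide 1, PURPL guide 2 and the control guide along the 5 genes with a control peak, by distance from the gene's 5′ end in kb (horizontal axis), with the gene body in grey and 5 kb on each side. Box outlines have a fixed minimum thickness, so the narrowest peaks look slightly wider than they are. The guide 1 peaks of ATF7IP sit inside the 5901 bp control peak, and the guide peaks of KDM4B share a place where the control has none.

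TRIM28 (gene ID 10155, chromosome 19, 58544064 to 58550715) had no peak in any list although it lies close to a zinc finger gene cluster rich in H3K9me3. Within 500 kb of the gene there were 32 peaks over 102 kb with PURPL guide 1, 29 peaks over 46.0 kb with PURPL guide 2 and 32 peaks over 147 kb with the control guide. The nearest peak of each list was on the same side of TRIM28, at ZNF132 and ZNF324B. It lay 108 kb away with PURPL guide 1, 108 kb with PURPL guide 2 and 105 kb with the control guide.

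MORC2 (gene ID 22880, chromosome 22, 30925130 to 30968774) and CBX5 (gene ID 23468, chromosome 12, 54230942 to 54280122) were unmarked as well. The peak nearest to MORC2 was 860 kb away with PURPL guide 1, 26.3 kb with PURPL guide 2 and 9.67 kb with the control guide. The control peak, at 30915155 to 30915460 in LOC107985544, had a score percentile of 77.2. The peak nearest to CBX5 was 299 kb away with PURPL guide 1, 817 kb with PURPL guide 2 and 352 kb with the control guide. The window rule thus leaves MORC2 and SUV39H2 unmarked in the control at distances of 9670 and 13021 bp, and keeps the flank peaks of EHMT1 and KDM4B, which lie 4435 and 4481 bp from their genes.

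**Figure D4:**
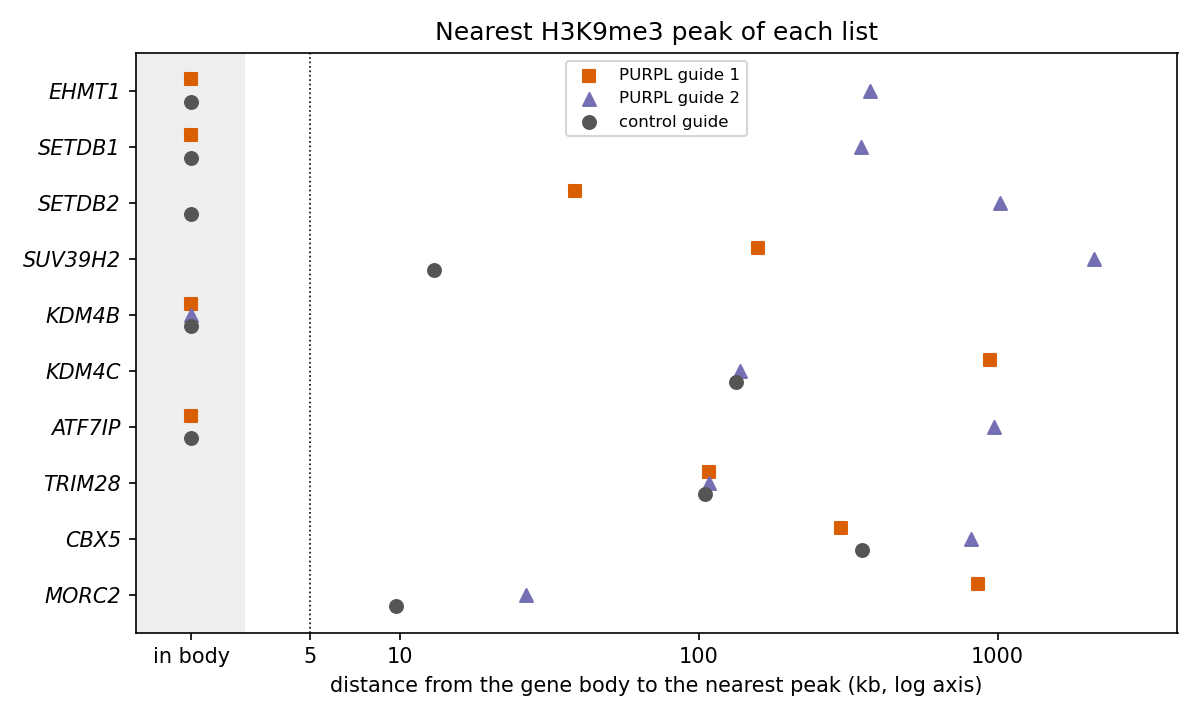
Distance in kb (horizontal log axis) from each gene body to the nearest peak of PURPL guide 1, PURPL guide 2 and the control guide, with peaks inside the body drawn in the grey band and the 5 kb limit dotted. TRIM28 had its nearest peaks at 108, 108 and 105 kb in the 3 lists, and PURPL guide 2 had a peak in the body of KDM4B only.

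The 18 peaks of the set were mostly narrow. Widths had a median of 594 bp with PURPL guide 1 (232 to 733 bp), 250 bp with PURPL guide 2 (242 to 258 bp) and 744 bp with the control guide (242 to 5901 bp). Over peaks in all protein-coding gene windows the medians were 685, 586 and 734 bp. The median score percentile was 39.4 with PURPL guide 1, 9.92 with PURPL guide 2 and 45.5 with the control guide, beside 30.7, 28.3 and 31.3 in all such windows. Gene bodies held 6 of 6 peaks with PURPL guide 1, 2 of 2 with PURPL guide 2 and 8 of 10 with the control guide. In all windows 89.1%, 87.6% and 89.6% of peaks touched a gene body.

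Of the 10 control peaks, 5 overlapped a PURPL guide 1 peak (50%, exact 95% binomial interval 18.7 to 81.3) and 0 overlapped a PURPL guide 2 peak. The exact interval for 0 of 10 reaches 30.8%, and the simpler limit of 3 counts gives 30%. These limits cover counting error only. They treat the 10 peaks as independent, although the peaks lie in 5 genes of 1 library. Over the 5182 control peaks in all protein-coding gene windows the shares were 22.0% and 11.4%. The exact intervals for both guides include these shares, which is not a test, because peaks of 1 library are not replicates. Among the 4 control peaks at or above percentile 50 of the control scores, 3 overlapped PURPL guide 1, and among the 6 below it 2 did. Over all windows 41.5% of the control peaks at or above percentile 50 and 15.3% of those below it overlapped PURPL guide 1. The overlaps were partial, from 1.93% of the control peak at the KDM4B flank to 38.4% inside KDM4B. Both comparisons use the same control library.

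**Figure D5:**
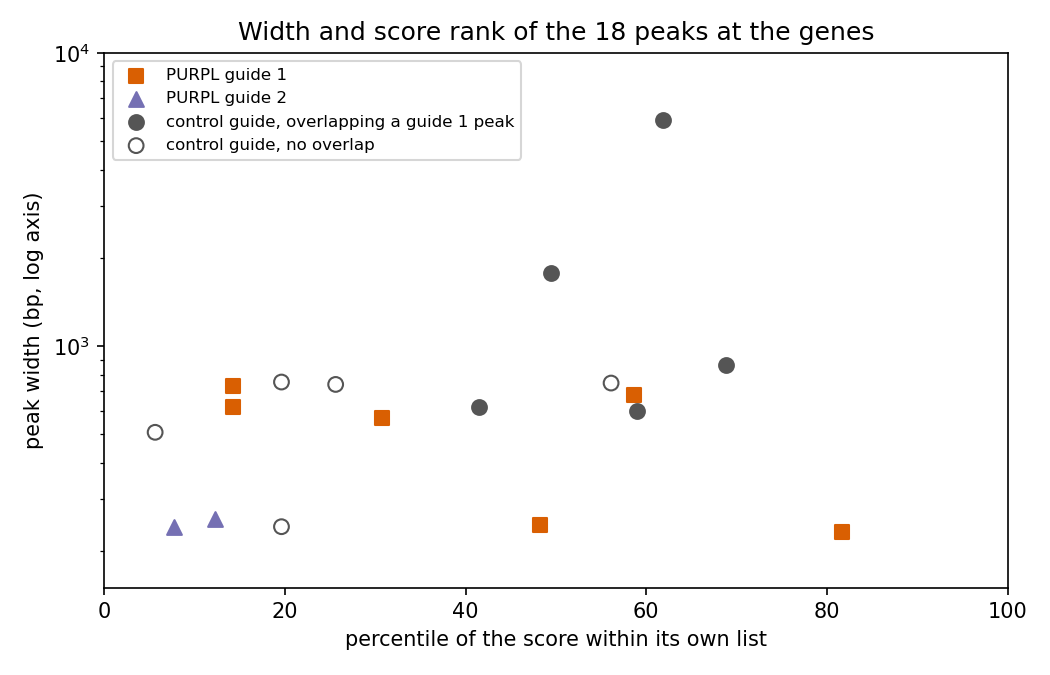
Width in bp (vertical log axis) against the percentile of the score within its own list (horizontal axis) for the 18 peaks of the set, with filled circles for control peaks that overlap a PURPL guide 1 peak and open circles for the other control peaks. The PURPL guide 2 peaks sit at percentiles 7.68 and 12.2, and the open circles lie at or below 754 bp.

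Other genes of H3K9 methylation were marked in a minority. A list of 43 further genes was used, of which 42 lie on the chromosomes analysed. Of these, 5 had a peak with PURPL guide 1, 2 with PURPL guide 2 and 12 with the control guide, beside 7.34%, 4.25% and 15.1% of all protein-coding genes. Among the 12 control-marked genes, coverage was at most 50% of the control in 10 with PURPL guide 1 and in 12 with PURPL guide 2. Over all control-marked protein-coding genes these shares were 82.0% and 93.1%, so nothing is read from the counts. Coverage was longer than in the control for 0 of the 12 with either guide, beside background shares of 5.95% with PURPL guide 1 and 2.46% with PURPL guide 2. This count leaves out PRDM2, which had a guide 1 peak and no control peak. The median share left was 0% with each guide, as it was over all control-marked protein-coding genes.

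The counts by role are small and stand beside the same 7.34%, 4.25% and 15.1% of all protein-coding genes. By role, 1 of 5 further writer genes was marked with PURPL guide 1, 0 with PURPL guide 2 and 1 with the control guide. They were different genes, as PRDM2 had 413 bp with PURPL guide 1 alone and PRDM16 had 378 bp with the control guide alone. Among 10 further erasers 1, 0 and 3 were marked. KDM3A, a demethylase of the lower methylation states, had 410, 0 and 789 bp with PURPL guide 1, PURPL guide 2 and the control guide. KDM3B (626 bp) and PHF2 (1116 bp) were marked in the control alone. Among 7 readers 1, 1 and 2 were marked. The chromodomain gene CDYL had 960, 339 and 4600 bp, and its relative CDYL2 had 1435 bp in the control alone.

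Among 20 further partner genes 2 were marked with PURPL guide 1, 1 with PURPL guide 2 and 6 with the control guide. The shares over all protein-coding genes were 7.34%, 4.25% and 15.1%. ZNF274, whose zinc finger protein brings TRIM28 and SETDB1 to zinc finger genes, stood apart with 30833 bp with PURPL guide 1, 14980 bp with PURPL guide 2 and 33689 bp with the control guide. It had 7, 10 and 4 peaks, so the guides divided a shorter length over more peaks, and 91.5% and 44.5% of the control length was left. ATF7IP2, the relative of ATF7IP, had 654, 0 and 2706 bp. RESF1 (1031 bp), SMCHD1 (969 bp), LRIF1 (887 bp) and ZNF644 (371 bp) were marked in the control alone. The TRIM28 gene was without peaks, as were those for the HUSH subunits TASOR, MPHOSPH8 and PPHLN1, the methyltransferases SUV39H1 and EHMT2 and the HP1 proteins CBX1 and CBX3.

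As a check of the labelled cell type, 10 genes that fibroblasts express were looked up. Peaks were found with PURPL guide 1 in 0, with PURPL guide 2 in 0 and with the control guide in 3 of them (DCN, COL1A2 and VIM). Of 9 marker genes of other cell types, 0, 0 and 1 (MITF) had a peak. Over all protein-coding genes the marked shares were 7.34%, 4.25% and 15.1%. Peak lists do not show expression, so these counts neither identify nor exclude a cell type.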

How the data were processed

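H3K9me3 ChIP-seq was analysed from the 3 peak lists the authors deposited, 1 per cell line. Fixation was in 1% formaldehyde (10 min), per the labels' protocols. The submitters' processing notes name MACS2 2.2.9.1, deepTools 3.5.1, GATK and Bowtie2 2.4.2, with the builds hg38 and GRCh38.p13. For peak-calling settings and depths, the sources used here give nothing. The score the authors deposited is a whole number of at least 10, of unnamed scale. Guide names inside the lists differ from the labels. Each list was therefore assigned by the name it was deposited under, matched to the sample titles.

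Gene ends came from RefSeq on GRCh38.p14, whose chromosomes have the coordinates of GRCh38.p13. That table gives no exons, so exonic or intronic places were not used here. Covered length counts window bases under peaks. No test was possible with 1 library per group. All protein-coding genes served as background. The genes and lists were chosen with earlier results of these data known. All 10 genes are named, and other pathway genes only where a peak was found or as background. Some further unmarked genes, named by complex or family, and the length classes, were chosen after values were seen. Overlap calculations were tested on simulated data. Alternatives changed the window, the score limit, the number of peaks, the overlap and the merging of peaks. Calculations ran in Python 3.11.15 with pandas 2.3.3, scipy 1.17.1, matplotlib 3.10.9 and numpy 2.4.6.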

Additional observations from a re-analysis of the deposited data

How the results depend on the processing

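Of 96 values recomputed under the alternatives, 84 stayed within 1.5 times the reported value, or within its interval for shares, and 12 did not. These limits are loose, as the interval for PURPL guide 1 ran from 18.7% to 81.3%. No recomputed value changed when 50% of a peak had to lie in the window or when peaks within 1 kb were merged. With 25 kb on each side, 4 genes were marked with PURPL guide 1, 1 with PURPL guide 2 and 7 with the control guide. No paired analysis was possible because each group has 1 library. With peaks limited to a score of at least 22, PURPL guide 1 had 2 marked genes, 3 peaks, 1158 bp and a median width of 245 bp. PURPL guide 2 had 0 marked genes, 0 peaks and 0 bp under this limit, so it has no width or score there. The control had 4 marked genes, 4 peaks and 8114 bp. Shares over all protein-coding genes were not computed under the alternatives, so nothing is read from these counts. With the top 11721 peaks of each list, PURPL guide 1 had 4 peaks over 1728 bp, PURPL guide 2 had 2 over 500 bp and the control 5 over 9887 bp. Control peaks at the lowest kept score of 21 were taken in order of position. When 50% of a control peak had to be covered, 0% of the control peaks were shared with PURPL guide 1. Of 50 differences from the control in single genes, 44 were negative. They repeat the same 5 control-marked genes under the alternatives, so they are not separate results. For SETDB2 the difference was 0 with both guides at scores of at least 22 and with the top 11721 peaks. The difference turned positive for EHMT1 with PURPL guide 1 when 25 kb was added on each side (28 bp), and for KDM4B with PURPL guide 1 at scores of at least 22 (178 bp). For EHMT1 the wider window took in a further guide 1 peak 9.34 kb past the gene's end. For KDM4B the 1773 bp control peak, with a score of 21, fell under the limit of 22. Both guide 1 peaks of KDM4B, at 22 and 25, stayed. Fewer peaks enter under the score limits, and other causes were not tested. The unknown depth limits every difference between lists.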

Other observations

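The genes were also compared together with their surroundings. Within 500 kb of the 10 genes, the length under peaks was 116 kb with PURPL guide 1, 49.1 kb with PURPL guide 2 and 188 kb with the control guide, which left 61.7% and 26.1%. Most of it lay around TRIM28. At and around the other 9 genes there were 24 peaks over 14.2 kb with PURPL guide 1, 7 peaks over 3.1 kb with PURPL guide 2 and 43 peaks over 41.1 kb with the control guide, which left 34.5% and 7.54%. These lengths include the gene bodies and their 5 kb flanks. Those windows held 3079 bp with PURPL guide 1, 500 bp with PURPL guide 2 and 12651 bp with the control guide. The shares left thus partly repeat the window results, and no such share was computed over all protein-coding genes.

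Single genes taken with their surroundings did not all go the same way. Around SETDB1 the covered length was 1956 bp with PURPL guide 1, 358 bp with PURPL guide 2 and 1723 bp with the control guide. PURPL guide 1 thus had more length there than the control, although the peak inside SETDB1 was narrower. Around KDM4C the lengths were 0, 1032 and 1571 bp, so PURPL guide 2 had more than PURPL guide 1. Around SETDB2 they were 4653, 0 and 9219 bp. The 500 kb reach was chosen with the peaks of the genes known.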
